A study of Mus musculus with 7 samples.

Results

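The let-7 family was followed through its 8 measured let-7 main strands (let-7a, let-7b, let-7c, let-7d, let-7e, let-7f, let-7g and let-7i) and miR-98, which carries the same seed. These 9 assays were picked by name, with star strands left out, from 517 assays for mouse microRNAs (miRNAs). They were read by quantitative PCR in total RNA of 4 aortas and 3 cultures of macrophages, to set inflammatory macrophages against the vessel. The aortas were untreated and came from female mice of 6 to 8 weeks. Their labels give the strain apoE-/-, a mouse that lacks apolipoprotein E, while the series title calls the aortas normal. The macrophages were grown for 7 days, with medium conditioned by L929 cells, from bone marrow of female C57BL/6 mice of 6 to 8 weeks. Stimulation with lipopolysaccharide (100 ng/ml, over 14 hours) and with interferon-γ (10 ng/ml, over 6 hours) made them M1, the inflammatory type. Strain, sample type and culture therefore cannot be told apart, and no unstimulated macrophages are part of the comparison. In whole tissue, fewer cells of a type and less miRNA per cell cannot be told apart either.

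A miRNA finds its messenger RNA targets mainly through its seed, the stretch from base 2 to base 8, so miRNAs with one seed share many targets. let-7 was first described as a timing gene of the worm Caenorhabditis elegans. In mammals its members accumulate as cells differentiate, the protein LIN28 blocks their maturation in early cells, and they repress growth genes such as Ras, Myc and Hmga2. In mouse macrophages let-7e is known to repress Tlr4, the receptor for lipopolysaccharide. Several members are cut from shared primary transcripts, so that hairpins lying next to each other can be made together.

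All 9 mature sequences were found in RefSeq (build GRCm38.p6). They are shown because every comparison of members rests on how little they differ. The seed is in capitals.
let-7a: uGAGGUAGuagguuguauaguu
let-7b: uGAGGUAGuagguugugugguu
let-7c: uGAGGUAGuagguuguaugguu
let-7d: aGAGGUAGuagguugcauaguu
let-7e: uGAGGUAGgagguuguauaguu
let-7f: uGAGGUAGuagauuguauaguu
let-7g: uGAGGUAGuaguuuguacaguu
let-7i: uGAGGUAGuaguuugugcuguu
miR-98: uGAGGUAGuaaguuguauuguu

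All 9 are 22 bases long and share the seed GAGGUAG. Counted from 1 at the 5′ end, and with the base of let-7a first, let-7c differs from let-7a by A19G, let-7e by U9G and let-7f by G12A. let-7b carries A17G and A19G, let-7d carries U1A and U16C, let-7g carries G12U and U18C, and miR-98 carries G11A and A19U. let-7i is the most distant from let-7a, with G12U, A17G, U18C and A19U. Assays for such close relatives can pick up each other's target. How far these did is not known, so a true difference between close members may be larger than measured.

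The hairpins are spread over several chromosomes. let-7a, let-7f and let-7d lie together on the minus strand of chromosome 13, at chr13:48538179-48538272, chr13:48537829-48537917 and chr13:48536012-48536114, so that let-7f-1 is 262 bases from let-7a-1 and 1715 bases from let-7d. let-7c-2 and let-7b lie 622 bases apart on the plus strand of chromosome 15, at chr15:85706603-85706697 and chr15:85707319-85707403. let-7f-2 and miR-98 lie 786 bases apart on the plus strand of chromosome X, at chrX:151912346-151912428 and chrX:151913214-151913321. let-7c-1 is next to miR-99a at chr16:77599657-77599750, let-7e is next to miR-125a at chr17:17830352-17830444, and let-7a-2 is 5212 bases from miR-100 at chr9:41536716-41536811, all 3 on the plus strand. let-7g at chr9:106178840-106178927 (plus strand) and let-7i at chr10:122985640-122985724 (minus strand) have no other let-7 hairpin beside them.

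Each well gave a cycle threshold (Ct), the amplification cycle where its signal passes a set level. More target gives a lower Ct. Wells up to Ct 35 counted as detected. Between 416 and 454 miRNAs were detected per aorta and 326 to 366 per macrophage sample, and the mean Ct over the 296 miRNAs detected everywhere was 23.6 ± 0.86 (SD, n = 4) for the aortas and 26.2 ± 1.35 (SD, n = 3) for the macrophage samples. The sample types carried their markers. The smooth muscle miRNAs miR-143 and miR-145 crossed at Ct 11.1 to 14.3 in aorta and 27.8 to 31.1 in macrophages, and miR-133a, also of muscle, was not detected in any macrophage sample. The endothelial miR-126-3p was at 14.4 to 16.1 and 27.8 to 29.9. By contrast, miR-155, which macrophages make when activated, crossed at 23.4 to 25.5 in aorta and 17.9 to 22.9 in macrophages. The aortas also held blood cell miRNAs. The myeloid miR-223 was at 18.7 to 19.8 in aorta and 16.0 to 19.0 in macrophages, miR-142-3p was at 19.9 to 20.8 and 17.3 to 20.0, the lymphocyte miRNA miR-150 was at 16.2 to 20.4 and 26.9 to 28.9, and the red cell miRNA miR-451 was at 19.1 to 21.1 and 32.2 to 34.0. miR-181a, also a lymphocyte miRNA, went the other way from miR-150 relative to the miRNA mean, higher in macrophages by 1.497 (adjusted p = 0.00813, limma), with Ct of 20.9 to 23.0 and 22.2 to 24.4. The part of such blood cells in the let-7 signal of the aortas was not tested.

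All 9 members were detected in every sample, well before the limit. Their Ct lay between 18.0 and 24.7 in aorta and between 18.7 and 24.9 in macrophages. let-7e crossed first in each of the 7 samples, at 20.1, 21.0, 18.0 and 18.1 in the aortas and at 19.0, 18.7 and 20.9 in the macrophages. By Ct alone let-7e ranked between 27 and 68 among the 517 miRNAs in aorta and between 11 and 16 in macrophages. let-7i ranked 62 to 100 and then 24 in each macrophage sample, and let-7a ranked 48 to 123 and then 18 to 20. let-7g ranked 85 to 98 in aorta and 63 to 70 in macrophages. Such ranks are nominal, since each assay amplifies with its own efficiency, which was not measured, and fewer miRNAs were detected in macrophages.

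Relative to the miRNA mean, the family split into members that were higher in macrophages and members that were not. The scaled level subtracts the member's Ct from the mean Ct of those 296 miRNAs in the same sample. One unit equals a doubling of the amount where amplification is perfect, and every fold given here assumes that. let-7a, let-7d, let-7e, let-7f, let-7i and miR-98 were higher in macrophages, 6 of 9 members, while let-7b, let-7c and let-7g did not pass and none was lower (limma across 429 miRNAs, adjusted p under 0.05). Across all 429 miRNAs 24.7% were called higher and 55.5% were called in either direction. The median difference was 2.39 over the 9 members and -0.21 over all miRNAs tested. It was 0.56 over the 296 miRNAs detected in all 7 samples, as the members were. The shares called were not taken over those 296 alone. The direction held under all 5 other scalings for let-7a, let-7i and miR-98. let-7d turned sign with the snoRNA pair, and let-7d, let-7e and let-7f did so in unscaled values.

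let-7a stood at 2.03, 1.68, 3.36 and 4.19 in the aortas and at 6.11, 5.97 and 5.97 in the macrophages. The macrophage samples lay almost on top of each other and above every aorta, whereas the aortas spread widely. let-7a was 9.18-fold higher in macrophages (log2 difference 3.20 ± 0.66 SE, adjusted p = 0.00512, limma), positive under all 5 other scalings and past the threshold under 3 of them (MammU6, the deposited values and quantile normalization). let-7i, which is known to repress TLR4 in human bile duct cells, stood at 2.36, 2.74, 3.30 and 3.37 in the aortas and at 5.71, 5.60 and 5.56 in the macrophages. The groups did not overlap, as in 58.7% of the 429 miRNAs. The difference of let-7i was 2.68 ± 0.40 SE (6.43-fold, adjusted p = 0.00113, limma). It was 0.44 with the snoRNA pair, 0.0434 without scaling and 2.94 with quantile normalization.

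miR-98, the member cut from the chromosome X pair with let-7f-2, was the least even in aorta. It stood at 1.26, 0.0058, 3.19 and 0.68 in the aortas and at 4.86, 4.36 and 4.48 in the macrophages. Aorta replicate 3 lay nearest to the macrophages and aorta replicate 2 farthest from them, but no aorta reached the macrophage range. The scaled level of miR-98 differed by 3.28 ± 0.76 SE (9.73-fold, higher in macrophages; adjusted p = 0.0081, limma). Without aorta replicate 3 the difference was 3.92, and the snoRNA pair put it at 1.04, unscaled values at 0.64.

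let-7e, the earliest assay of the family, had a scaled level of 3.43, 3.73, 4.64 and 5.29 in the aortas and of 6.40, 6.76 and 6.83 in the macrophages. It was 5.25-fold higher (2.39 ± 0.54 SE, adjusted p = 0.0075, limma), and the snoRNA pair put the difference at 0.15, unscaled values at -0.25. let-7d and let-7f, which have hairpins in the chromosome 13 cluster with let-7a-1, differed by 2.11 ± 0.44 SE and 2.47 ± 0.50 SE. let-7d stood at 1.52, 2.27, 1.82 and 2.85 in the aortas and at 4.12, 4.21 and 4.36 in the macrophages. let-7f stood at 1.19, 1.68, 2.06 and 2.94 in the aortas and at 4.22, 4.35 and 4.74 in the macrophages. All 3 members with a hairpin in that cluster were thus called higher under this scaling, with no overlap between the groups. With the snoRNA pair the differences of let-7a, let-7d and let-7f were 0.96, -0.12 and 0.23, and without scaling they were 0.56, -0.53 and -0.17.

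**Figure D1:**
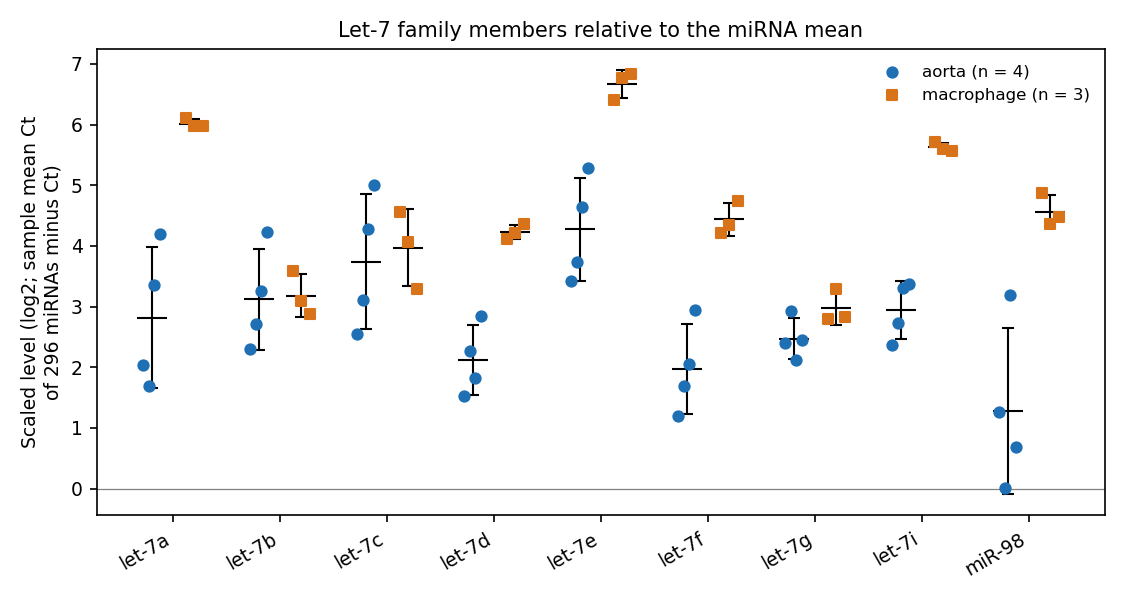
Scaled level of each let-7 family member (log2, y axis) in 4 aortas (blue circles) and 3 macrophage samples (orange squares), with bars for the mean and SD. The groups are apart for let-7a, let-7d, let-7e, let-7f, let-7i and miR-98 and overlap for let-7b, let-7c and let-7g. The signs of let-7d, let-7e and let-7f turn without scaling, and that of let-7d also with the snoRNA pair.

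let-7b and let-7c, which have neighbouring hairpins on chromosome 15, did not follow. let-7c has another hairpin on chromosome 16, and its assay cannot tell them apart. let-7b stood at 2.30, 2.71, 3.26 and 4.22 in the aortas and at 3.58, 3.09 and 2.88 in the macrophages, a difference of 0.06 ± 0.54 SE (adjusted p = 0.925, limma). let-7c stood at 2.55, 3.11, 4.29 and 5.01 and at 4.56, 4.06 and 3.29, a difference of 0.23 ± 0.69 SE. For both members every macrophage value lay inside the range of the aortas. let-7g was at 2.47 ± 0.33 (SD, n = 4) for the aortas and 2.97 ± 0.28 (SD, n = 3) for the macrophage samples, and its difference of 0.50 ± 0.38 SE did not pass either (adjusted p = 0.309, limma). let-7g passed with quantile normalization, at 1.06. With the snoRNA pair let-7b, let-7c and let-7g were all called lower, at -2.18, -2.01 and -1.74.

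**Figure D2:**
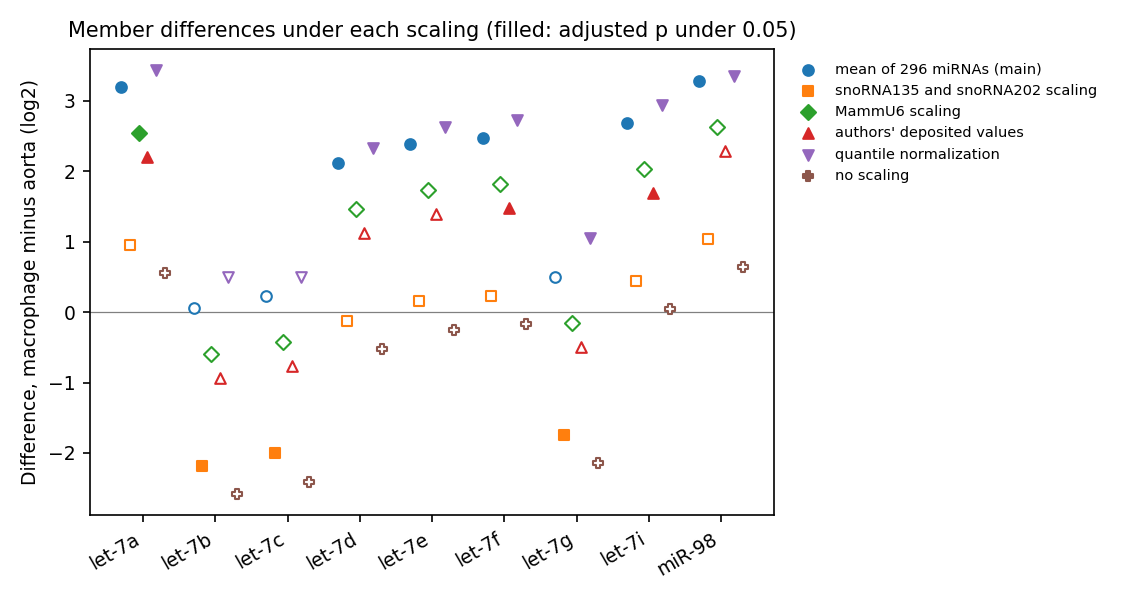
Difference between macrophages and aorta (log2, y axis) of each member under 6 ways of scaling the samples, drawn as different markers and filled where the adjusted p was under 0.05. Scaling by one value per sample moves all members by the same amount, while quantile normalization moves them unequally. Without scaling the signs of let-7b, let-7c, let-7d, let-7e, let-7f and let-7g are below 0, and let-7b, let-7c and let-7g stay below the other 6 members in each setting.

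The choice of scaling thus sets how many members count as higher. Against the main setting, the median difference of all tested miRNAs moved by -2.24 with snoRNA135 and snoRNA202, by -0.66 with MammU6, by -1.20 with the authors' deposited values, by 0.61 with quantile normalization and by -2.64 without scaling. The number of members called higher was 0 with the snoRNA pair, 1 with MammU6, 3 with the deposited values, 7 with quantile normalization and 0 without scaling. The mean of the 9 differences was 1.88, and the snoRNA pair put it at -0.36, unscaled values at -0.76. The family mean itself stood at a scaled level of 2.75 ± 0.63 (SD, n = 4) for the aortas and 4.63 ± 0.08 (SD, n = 3) for the macrophage samples. The macrophage samples were closely alike on this scale, from 4.55 to 4.71, and the aortas ran from 2.11 to 3.44.

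Each member was also set against the family mean of its own sample, which no scaling by one value per sample can change (quantile normalization can). On this scale let-7b and let-7c were lower in macrophages. let-7b stood at 0.19, 0.39, 0.14 and 0.78 in the aortas and at -1.13, -1.54 and -1.67 in the macrophages. It was thus above the family mean in every aorta and below it in every macrophage sample, a 3.53-fold fall against its family (log2 difference -1.82 ± 0.51 SE, adjusted p = 0.018, limma across 429 miRNAs). let-7c stood at 0.43, 0.80, 1.17 and 1.56 and at -0.15, -0.57 and -1.26, a 3.13-fold fall (-1.65 ± 0.57 SE, adjusted p = 0.0395, limma).

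These 2 of 9 members were the only ones called on this scale, and both were called lower. Of all 429 miRNAs, 45.5% were called lower against the family mean, 7.46% were called higher and 52.9% were called in either direction, so the share of members called is below the background. The median over the members was 0.51 and that over all miRNAs -2.09, since members are set against a mean they form themselves. For the same reason the shares called are not on equal terms, and the lower share says nothing about the members. The adjusted p of a member depends on that background too. With so many of the 429 miRNAs called, the adjustment is milder than one over the 9 members alone, which was not made. The unadjusted p (limma) was 0.00691 for let-7b and 0.0196 for let-7c. Both calls also rest on few samples. let-7b lost its call when macrophage replicate 2 (adjusted p = 0.065) or 3 (adjusted p = 0.0511) was left out, and over 15 alternatives its adjusted p ran from 0.00521 to 0.0735. let-7c kept its call, among the fits that left out 1 sample, only without aorta replicate 1, with adjusted p from 0.0167 to 0.133 over all 15 alternatives.

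The other members did not pass. let-7a was at 0.07 ± 0.58 (SD, n = 4) for the aortas and 1.39 ± 0.04 (SD, n = 3) for the macrophage samples, with no overlap (1.32 ± 0.55 SE, adjusted p = 0.0725, limma). It passed without aorta replicate 4 (1.54, adjusted p = 0.0441), and its adjusted p ran from 0.0353 to 0.167 over 15 alternatives. let-7g stood at 0.28, 0.61, -0.99 and -0.996 in the aortas and at -1.91, -1.34 and -1.72 in the macrophages. The aortas fell into a higher and a lower pair, and both pairs lay above the macrophages (-1.38 ± 0.63 SE, adjusted p = 0.0946, limma). let-7i, let-7f, let-7e and let-7d differed by 0.80, 0.59, 0.51 and 0.23 and miR-98 by 1.40 ± 0.78 SE, all short of the threshold. In 6 of 9 members the groups did not overlap, against 56.6% of all miRNAs on this scale.

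**Figure D3:**
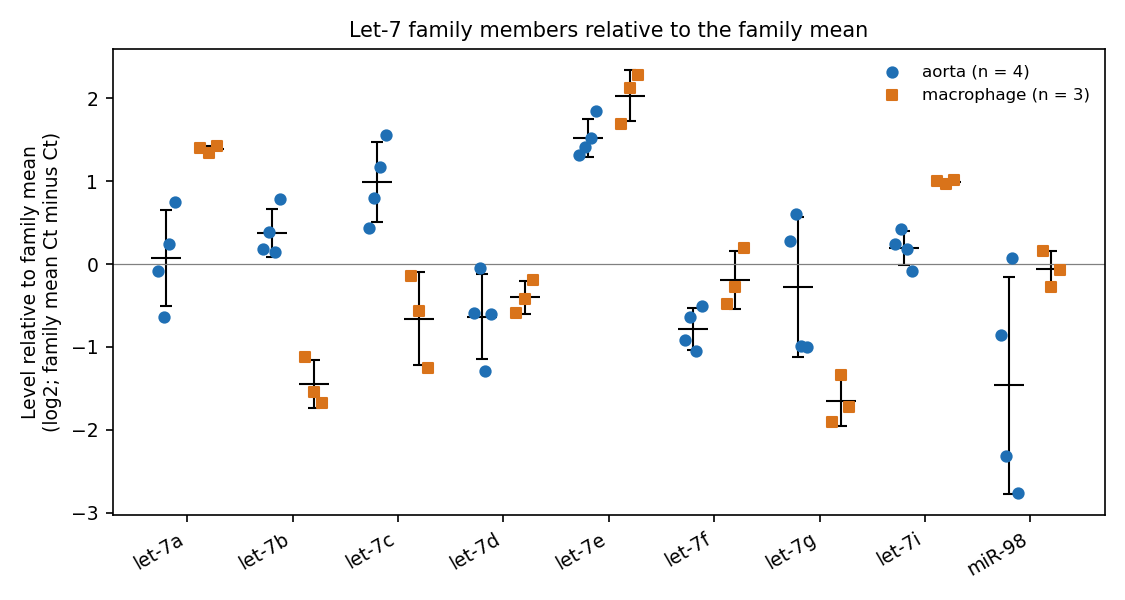
Level of each member against the mean of the 9 members in the same sample (log2, y axis; 0 is the family mean) in 4 aortas (blue circles) and 3 macrophage samples (orange squares), with bars for the mean and SD. let-7b and let-7c lie above 0 in all 4 aortas and below 0 in all 3 macrophage samples, and let-7e lies above 0 in all 7 samples.

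As nominal shares of the summed family signal, with a doubling per cycle assumed, let-7e was the largest member in every sample. It held 25.7% ± 1.64 (SD, n = 4) for the aortas and 32.4% ± 4.76 (SD, n = 3) for the macrophage samples. Second place changed hands. In aorta it was held by let-7c, with 13.4%, 15.7%, 20.5% and 22.9%, and in macrophages by let-7a, with 22.0%, 20.0% and 19.7%. let-7a had held 5.84% to 13.0% in the aortas, and let-7c held 3.09% to 7.52% in the macrophages. let-7b went from 11.6% ± 1.35 (SD, n = 4) to 2.95% ± 0.78 (SD, n = 3).

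let-7b, let-7c and let-7g, put together after their values were seen, made up 36.8%, 41.4%, 35.1% and 40.1% of the family in the aortas and 13.6%, 11.2% and 7.64% in the macrophages. let-7g alone ran from 3.88% to 13.8% over the aortas and from 2.22% to 3.12% over the macrophages. let-7i went from 10.4% ± 2.17 (SD, n = 4) to 15.7% ± 0.931 (SD, n = 3). let-7d had means of 6.05% and 5.97%, but it ran from 3.70% to 8.79% over the aortas and from 5.55% to 6.47% over the macrophages. miR-98 ran from 1.14% to 9.56% over the aortas, a range that took in all 3 macrophage values, 6.52% to 9.29%. The shares did not overlap for 6 of 9 members, near the 56.6% of all 429 miRNAs whose levels against the family mean did not overlap. With 4 against 3 samples a 2-sided exact permutation test cannot go below p = 0.0571.

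**Figure D4:**
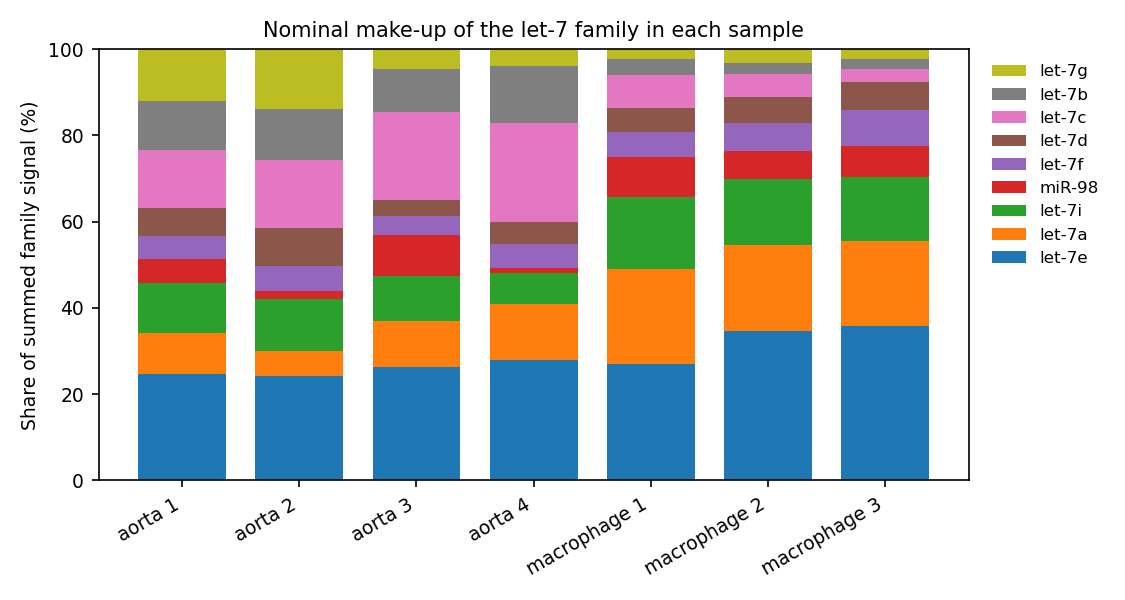
Share of each member in the summed signal of the 9 members (percent, y axis, stacked to 100) in each of the 7 samples, with a doubling per cycle assumed. let-7b, let-7c and let-7g at the top of the bars take 35.1% to 41.4% in the aortas and 7.64% to 13.6% in the macrophages, and let-7e at the base takes 24.2% to 35.8%.

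The order of the members differed between the groups beyond first place. By their means in aorta, let-7e came first, let-7c next and then let-7b. let-7e lay above let-7c, and let-7c above let-7b, in all 4 samples, with gaps of 0.54 ± 0.27 and 0.62 ± 0.36 (log2 difference, SD, n = 4). However, other members lay between let-7c and let-7b. These were let-7i in aorta replicates 1, 2 and 3, let-7g in aorta replicates 1 and 2, and let-7a in aorta replicate 3. From let-7b on, through let-7i, let-7a, let-7g, let-7d, let-7f and miR-98, no neighbours in the order of the aortas differed beyond their spread. By their means in macrophages, the order began with let-7e, let-7a, let-7i and miR-98. Each lay above the next in all 3 samples, with gaps of 0.65 ± 0.31, 0.39 ± 0.02 and 1.06 ± 0.20 (log2 difference, SD, n = 3), although let-7f lay between let-7i and miR-98 in macrophage replicate 3. miR-98 and let-7f could not be ordered, nor could let-7d and let-7c, nor let-7b and let-7g at the end. These orders compare different assays and are nominal for that reason.

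The ratio of any pair of members needs no scaling. Pairs 1 base apart differ least in sequence, and assays for such close relatives can pick up each other's target. There are 4 pairs 1 base apart among the 36 pairs of members. The ratio of let-7a to let-7c, which differ by A19G, moved the most of the 4. On the log2 scale it was -0.51, -1.43, -0.93 and -0.81 in the aortas and 1.54, 1.91 and 2.68 in the macrophages, so that let-7c gave the earlier Ct in every aorta and let-7a in every macrophage sample. The ratio changed by 2.96, or 7.80-fold. Some pairs further apart changed more, with let-7a over let-7b at 3.14, let-7b over miR-98 at -3.22 and let-7c over miR-98 at -3.05. The ratio of let-7b to let-7c, which differ by G17A, was at -0.62 ± 0.36 (SD, n = 4) and -0.79 ± 0.32 (SD, n = 3), a change of -0.17 within the spread of either group.

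let-7a over let-7e (U9G) changed by 0.81, from -1.46 ± 0.41 to -0.65 ± 0.31 (log2 ratio, SD), and the groups did not overlap. let-7a over let-7f (G12A) changed by 0.73, from 0.85 ± 0.60 to 1.58 ± 0.33, with overlap. let-7e and let-7f, which differ by 2 bases, had a ratio of 2.30 ± 0.22 in aorta and 2.23 ± 0.17 in macrophages, with overlap. let-7g and let-7i, which also differ by 2 bases, moved apart by 2.18, from -0.47 ± 0.68 to -2.65 ± 0.31. The number of pairs without overlap was 19 of 36, and these pairs share members. No such count was made for pairs of other miRNAs. Of all 429 miRNAs, 56.6% did not overlap against the family mean, so the count is not read as particular to the family. No pair can reach p = 0.05 in the 2-sided exact permutation test of 4 against 3 samples, whose smallest p is 0.0571.

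The star strands, the partner strands of the same hairpins, set the main strands of the family in another light. A hairpin gives a main strand and a star strand, of which the star is usually discarded once the main strand has been loaded. The gap between them, Ct of the star minus Ct of the main strand, needs no scaling. It was wider in macrophages for all 7 let-7 hairpin assays with a star strand (limma across 54 strand pairs of the panel, adjusted p under 0.05). Of all 54 pairs 44.4% were called wider and 16.7% narrower. In 6 of the 7 the groups did not overlap and the macrophages were wider, as in 42.6% of the 54. The median change was 2.76 cycles for the let-7 pairs and 1.04 cycles over the 54. This comparison was chosen after values of the star strands had been seen.

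The gap of let-7a was 2.31, 1.38, 2.17 and 3.07 cycles in the aortas and 8.88, 7.60 and 6.50 cycles in the macrophages. It grew by 5.43 ± 0.66 SE cycles (adjusted p = 0.000187, limma; 4.82 without macrophage replicate 1). In the raw data, let-7a* crossed at 21.4 to 24.4 in aorta and at 27.1 to 28.3 in macrophages, while let-7a crossed at 19.2 to 23.0 and at 19.3 to 21.8. The gap of let-7b was 3.25, 2.62, 4.01 and 4.44 cycles in the aortas and 8.42, 7.12 and 8.34 in the macrophages, a growth of 4.38 ± 0.60 SE cycles (adjusted p = 0.000311, limma). For both members the narrowest gap among the macrophages was well above the widest among the aortas.

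The remaining gaps grew by 2.01 to 2.80 cycles. let-7d, whose star strand is nearly as early as its main strand in aorta, went from 1.52 ± 0.89 (SD, n = 4) to 4.10 ± 0.71 (SD, n = 3) cycles, and let-7f from 3.08 ± 0.31 to 5.84 ± 0.56. let-7i kept the widest gap of the family in both groups, at 7.86 ± 1.34 and 10.55 ± 0.21. let-7g grew by 2.80 (adjusted p = 0.0154, limma), but by 3.57 without aorta replicate 2, and its call was lost when macrophage replicate 1 was left out (adjusted p = 0.059). let-7c over let-7c-1* overlapped between the groups, with 6.24 cycles in both aorta replicate 4 and macrophage replicate 2. Its change of 2.01 missed the threshold without aorta replicate 1 or 3 or macrophage replicate 1 or 3, was 2.70 without macrophage replicate 2, and was 1.13 without macrophage replicate 3, with adjusted p from 0.0199 to 0.146 over 10 alternatives.

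The strand gap has limits of its own. RefSeq lists the same letters for let-7a-1-3p and let-7c-2-3p, so the let-7a* signal may come from hairpins on chromosomes 13 and 15. let-7a, let-7c and let-7f each have 2 hairpins in RefSeq, so their main strand is not tied to the one hairpin, and let-7a cannot be assigned to the chromosome 13 cluster alone. The star wells of the macrophages were also late, reaching 33.2 for let-7b*, 33.4 for let-7g* and 33.9 for let-7c-1* in macrophage replicate 3. The part of late wells in the gaps was not tested, apart from a stricter limit of Ct 32, which kept 3 of the 7 pairs (let-7a, let-7d and let-7f), all 3 of them called wider.

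**Figure D5:**
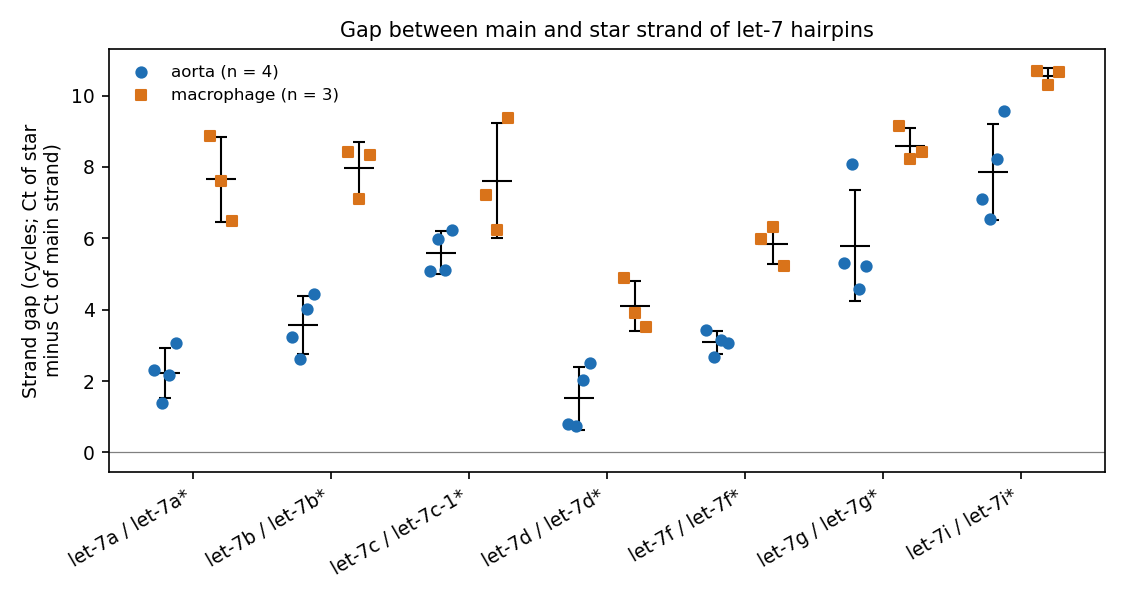
Gap between the star and the main strand (cycles, y axis; larger means less star strand for the same main strand) of 7 let-7 hairpins in 4 aortas (blue circles) and 3 macrophage samples (orange squares), with bars for the mean and SD. The groups are apart in 6 of 7 pairs and overlap for let-7c and let-7c-1*.

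Relative to the miRNA mean, 3 of the 7 star strands were lower in macrophages and none was higher, with 30.8% of all miRNAs called lower. let-7b* was lower by the most, from -0.46 ± 0.48 (SD, n = 4) to -4.78 ± 0.72 (SD, n = 3). The difference was -4.32 ± 0.50 SE (adjusted p = 0.00029, limma) and kept its call in all 18 alternatives. let-7a* and let-7g* differed by -2.23 and -2.30 (-2.94 without aorta replicate 2 for let-7g*). let-7a* missed the threshold with quantile normalization and without macrophage replicate 1 or 2, and let-7g* missed it in 8 alternatives, among them each single replicate left out other than aorta replicate 2 and macrophage replicate 2. All 7 were called lower with the snoRNA pair or with unscaled values, and 1 with quantile normalization, which turned the sign of let-7d*, let-7f* and let-7i*. let-7b thus had a main strand whose scaled levels overlapped between the groups beside a star strand whose levels did not.

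The miRNAs made from the same transcripts as let-7 hairpins were not called higher under this scaling. Of miR-99a, miR-99b, miR-100, miR-125a-5p and miR-125b-5p none was higher, 1 was lower and 4 did not pass, beside 24.7% higher and 30.8% lower among all 429 miRNAs, and with 5 assays these counts are near that background. Their median difference was -0.64. miR-125b-5p, at 6.10, 6.43, 5.49 and 5.62 in the aortas and 5.44, 3.80 and 3.32 in the macrophages, was lower by 1.72 ± 0.59 SE on the log2 scale (adjusted p = 0.0408, limma). It was at -2.35 without macrophage replicate 1, and it missed the threshold without aorta replicate 1, 2 or 3 or macrophage replicate 2 or 3 (adjusted p from 0.00141 to 0.138 over 18 alternatives). Macrophage replicate 3 stood apart for miR-99a, at 0.86 against 4.82 and 3.81, and for miR-100, at 0.94 against 4.46 and 3.47. miR-99b, the partner of let-7e, was at 0.76 ± 0.56 SE, and miR-125a-5p, also its partner, at -0.40 ± 0.61 SE. Their signs turned with scaling for miR-99b (-1.48 with the snoRNA pair, -0.24 with the deposited values and -1.88 without scaling) and stayed negative for miR-125a-5p in all 5 other scalings, though not without macrophage replicate 3 (0.22), while let-7e itself was at 2.39.

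The miRNAs outside the family that tracked its mean most evenly were ranked by the SD, over the 7 samples, of their Ct minus the family mean Ct. Among 287 miRNAs detected everywhere the smallest SDs were those of miR-297c at 0.23 cycles, miR-29a* at 0.29, miR-181a at 0.39, miR-106b at 0.40 and miR-467a at 0.42. By the same measure the members themselves ranged from 0.36 for let-7e to 1.20 for miR-98, so that miR-297c and miR-29a* kept closer to the family mean than any member did. miR-106b, a member of the miR-17 seed family, had a scaled level of 1.49 ± 0.56 (SD, n = 4) for the aortas and 3.40 ± 0.22 (SD, n = 3) for the macrophage samples.

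Within the family, the aortas had larger SDs than the macrophages. The median SD of the scaled level over the 9 members was 0.83 in aorta and 0.27 in macrophages, while over all 429 miRNAs it was 0.68 and 0.84. In aorta the SD ran from 0.33 for let-7g to 1.37 for miR-98, and in macrophages from 0.08 for let-7i and let-7a to 0.64 for let-7c. For 6 members (let-7a, let-7b, let-7c, let-7e, let-7f and let-7i) aorta replicates 3 and 4 lay above aorta replicates 1 and 2. The difference in variation was not tested, and 4 and 3 samples give only a rough SD.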

How the data were processed

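The authors' deposited table holds raw Ct values of 517 mouse miRNA assays and control assays in 4 aortas and 3 macrophage samples, with uncrossed wells at Ct 40. A log2 table, also deposited, gives Ct differences against MammU6 and snoRNA202, as its values show. Instrument and assay sequences: not given in the sources used here. RNA was isolated with a kit for small RNAs, per the labels' protocols.

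Wells after Ct 35 were set to 35. Tested were the 429 miRNAs found in 3 or more samples of a group. Levels were scaled to the mean Ct of the 296 miRNAs detected in all 7 samples, or to the family mean, and compared with limma 3.58.1 (lmFit, eBayes, 2-sided) in R 4.3.3, with Benjamini-Hochberg adjustment over all miRNAs tested. Strand gaps were fitted over 54 pairs of a miRNA and its star strand. The test was also run on simulated levels with independent noise. These held no wells set to 35 and no members tied to their own mean, so they cannot show how the test does there. Tables were made with pandas 2.3.3 and numpy 2.4.6 under Python 3.11.15, exact tests with scipy 1.17.1, and plots with matplotlib 3.10.9. Named were all members, the let-7 star strands, 5 miRNAs known from let-7 transcripts and the 5 miRNAs closest to the family mean. The strand gap comparison was chosen after values were seen. The members and lists were chosen with earlier results of these data known. Alternatives were other scalings, limits of Ct 38 and 32, stricter detection, other family centres, a variance trend, a replicate block and leaving out each sample. Their number limits the precision.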

Additional observations from a re-analysis of the deposited data

Results flagged for a closer look

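One value stood far from the other aortas. The scaled level of miR-99b in aorta replicate 2 was 5.58, while the other aortas lay at 4.29, 4.34 and 4.48, and its gap to them was 0.857 of the whole range of the 4 samples. Among the 37 sets of 4 aorta values examined this way (members, star strands, neighbours and strand gaps), it was the only such value. Chance gives about 1 in 20 sets, so 1 among 37 is no more than chance gives.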

How the results depend on the processing

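With the snoRNA pair the family mean difference was -0.36, and let-7b, let-7c, let-7d, let-7g and miR-99b turned to -2.18, -2.01, -0.12, -1.74 and -1.48, with 0 members higher, 3 lower, 7 star strands lower and 4 neighbours lower. With MammU6 the family mean was 1.23, and let-7b, let-7c and let-7g were at -0.60, -0.42 and -0.16, with 1 member higher and 0 neighbours lower. With the deposited values it was 0.89, and let-7b, let-7c, let-7g and miR-99b were at -0.93, -0.76, -0.49 and -0.24, with 3 members higher and 2 neighbours lower. Without scaling it was -0.76, and let-7b, let-7c, let-7d, let-7e, let-7f, let-7g and miR-99b were at -2.58, -2.41, -0.53, -0.25, -0.17, -2.14 and -1.88, with 0 members higher, 7 star strands lower and 3 neighbours lower. With quantile normalization let-7d*, let-7f* and let-7i* were at 0.19, 0.36 and 1.76, with 1 star strand lower. let-7i* was at 0.0486 with the members left out of the scaling and at 0.11 with a limit of Ct 38, where 0 neighbours were lower. With a limit of Ct 32 let-7b was at -0.23, let-7c at -0.0565, and 3 strand gaps were wider, because only 3 pairs were left. Against the family mean, 1 member was higher and 1 lower when the family median was the centre, 1 was lower with the 8 let-7 members as the centre, and 1 was higher with a variance trend. With the family median as the centre miR-98 (1.73) and let-7a (1.64) shifted more than let-7b (-1.49) and let-7c (-1.32). Beyond what the settings' own construction shows, the cause was not tested.

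Same-numbered samples did not deviate together (r = 0.11, 0.00769 and -0.0738 over 296 miRNAs), so the replicate numbers were not taken to pair them. With the replicate block, which leaves out aorta replicate 4, 6 members were still called higher relative to the miRNA mean, 0 members were lower against the family mean, 0 neighbours were lower, 6 strand gaps were wider and let-7f* was at 0.0287.

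Leaving out 1 sample at a time gave 6 members higher in each case, a family mean difference of 1.67 to 2.10, 0 to 1 members higher and 0 to 2 lower against the family mean, 1 to 3 star strands and 0 to 1 neighbours lower, and 5 to 7 strand gaps wider. let-7b ran from -0.21 to 0.42, let-7c from -0.16 to 0.67, let-7f* from -0.66 to 0.0287, let-7i* from -0.45 to 0.34, miR-99a from -1.47 to 0.60 and miR-125a-5p from -0.85 to 0.22. Shares did not overlap for 6 to 7 members, and products of 1.9 or 1.8 per cycle left that count within 1.5 times. The members lay far from the detection limit, whereas late star strand wells limit the strand gaps.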

Other observations

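In aorta replicate 2 let-7a and let-7f were listed at the same Ct, 23.021, a value that let-7f also had in macrophage replicate 3. Of the 417 wells below Ct 40 in aorta replicate 2, 18 shared their Ct with another well of that sample.

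Set against the family mean, the reference small RNAs moved in both directions. The level of MammU6 over the family mean was 7.04 ± 0.78 (log2, SD, n = 4) for the aortas and 5.82 ± 0.31 (SD, n = 3) for the macrophage samples, a change of -1.23, while snoRNA135 went from -0.79 ± 0.18 to 0.48 ± 0.03, a change of 1.27. The others changed by -0.55 (snoRNA202), -1.93 (snoRNA429), -0.08 (U87) and 0.78 (Y1). The snoRNA pair used as a scaling thus averages snoRNA135 and snoRNA202, which moved in opposite directions against the family.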
